A study of Mus musculus with 16 samples.

Results

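The NKG2 family and other receptors of natural killer (NK) cells were followed as 7 genes, *Klrc1*, *Klrc2*, *Klrd1*, *Klrk1*, *Klrb1c*, *Ncr1* and *Klre1*. All 7 were found by symbol among the 24469 gene symbols counted in each of 16 single-cell RNA libraries. Immune cells came from *Aire*+/+ or *Aire*-/- mice of the C57BL/6 strain at day 19 after implantation of MC38, a colon tumor line derived from the same strain. *Aire* is needed for the display of tissue antigens in the thymus, so its loss weakens the removal of self-reactive T cells. Mice of each genotype received an anti-PD1 antibody, which blocks an inhibitory receptor of T cells, or an isotype control antibody. Cells were pooled from several mice per condition.

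Each of the 4 conditions gave 1 library of CD45+ cells and 1 of CD8+ cells from the tumor, and the same from the spleen. Values for 4 conditions are listed throughout with both *Aire*+/+ libraries before both *Aire*-/- libraries, and within each genotype isotype comes before anti-PD1. *Aire* itself gave 18 unique molecular identifiers (UMIs, counted RNA molecules) in the 8 *Aire*+/+ libraries together, with 0 to 6 per library, and 6 in the 8 *Aire*-/- libraries, with 0 to 4 per library. Since the gene was almost silent in these cells, its counts could not check the genotype labels.

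Depth was higher in the tumor. The CD45+ libraries held 38930017, 28760714, 24639370 and 23282799 UMIs in the tumor and 12131827, 10927391, 11179227 and 12618095 in the spleen. The CD8+ libraries held 35163274, 27052444, 22414023 and 23271160 UMIs in the tumor and 20126140, 19167788, 15590029 and 16279427 in the spleen. No pair of libraries shared more than 18 cell barcodes.

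As background, the products of *Klrc1* (NKG2A) and *Klrc2* (NKG2C) each pair with CD94, the product of *Klrd1*, and bind the nonclassical class I molecule Qa-1. NKG2A carries inhibitory motifs, whereas NKG2C signals through an activating adaptor. NKG2D, the product of *Klrk1*, is an activating receptor for stress-induced ligands that NK cells carry constitutively and mouse CD8+ T cells gain on activation. *Klrb1c* encodes the NK1.1 antigen of C57BL/6 mice, *Klre1* encodes a lectin-like receptor that pairs with KLRI1 or KLRI2, and *Ncr1* encodes NKp46. NKp46 has immunoglobulin-like rather than lectin-like domains, so 6 of the 7 genes fit the name of lectin-like receptors. Of these genes, 6 lie on chromosome 6 in GRCm38.p6, with *Klrb1c* at chr6:128778485-128788641, *Klre1* at chr6:129559365-129585828, *Klrd1* at chr6:129588092-129598775, *Klrk1* at chr6:129610323-129623903, *Klrc2* at chr6:129649602-129660737 and *Klrc1* at chr6:129666015-129682852. *Ncr1* lies at chr7:4337715-4345184.

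Cells were classed by marker UMIs that included none of the 7 genes. CD8+ T cells held a *Cd3* UMI and a *Cd8* UMI without *Cd4*, and numbered 2496, 2121, 1785 and 2162 in the CD8+ sort of the tumor, 2779, 2839, 2276 and 2529 in that of the spleen, 131, 206, 209 and 712 in the CD45+ sort of the tumor and 141, 155, 149 and 190 in that of the spleen. NK-gated cells lacked *Cd3* and *Cd8* UMIs and the marks of B and myeloid cells, and held an *Nkg7* UMI beside one of *Eomes*, *Il2rb*, *Prf1* or *Gzma*. They numbered 104, 125, 152 and 239 in the CD45+ sort of the tumor and 80, 46, 54 and 51 in that of the spleen. In the NK-gated cells all 10 NK markers examined had a row, and 8, 8, 9 and 8 of them reached 10 CPM (UMIs of the gene per 1e+06 UMIs of the summed class) in the tumor and 9 in each spleen library. Their summed level was 9649.7, 9056, 11405 and 11795 CPM in the tumor and 21061, 18696, 17828 and 23783 CPM in the spleen, with *Gzma*, a gene of the gate, as the most abundant. Among the markers that the gate did not use, *Klra8*, which encodes the receptor Ly49H, stood at 71.2, 89.7, 111 and 116 CPM in the tumor and 590.2, 393, 632 and 671 CPM in the spleen. The chemokine gene *Xcl1* went the other way, at 1741, 1716, 1195 and 1196 CPM in the tumor and 214, 354, 421 and 216 CPM in the spleen, while *Ncam1* was at 0 in all 8 libraries. The NK-gated cells of the tumor also held more RNA of myeloid genes. *Lyz2* was at 98.7, 216, 194 and 83.6 CPM there and 3.11, 4.85, 3.57 and 4.41 CPM in the spleen, and *C1qb* was at 60.4, 20.4, 8.49 and 6.6 CPM and at 0 in each spleen library. The part of this RNA in the results for NK-gated cells was not tested.

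The inhibitory chain *Klrc1* differed most between tumor and spleen among the 6 members tested in CD8+ T cells. In the CD8+ sort it was at 934, 1065, 1049.6 and 966 CPM in the tumor and at 30.9, 21, 79.1 and 76 CPM in the spleen. No spleen library came near the lowest tumor library. *Klrc1* rose 20.7-fold in the tumor (log2 difference 4.37 ± 0.33 SE, adjusted p = 1.04e-05 by edgeR's quasi-likelihood test with Benjamini-Hochberg adjustment, higher in 4 of 4 conditions). In the CD45+ sort it was at 696, 869.9, 919 and 921 CPM in the tumor and 39.6, 69.4, 73.4 and 74.8 CPM in the spleen, and it rose 12.5-fold (log2 difference 3.65 ± 0.10 SE, adjusted p = 8.16e-15 by edgeR's quasi-likelihood test with Benjamini-Hochberg adjustment, 4 of 4 conditions). Whether both sorts came from the same mice is not given, so the second was not counted as independent. Here and below, the p-values between tissues measure the spread over 4 pairs of pooled libraries. Those between classes, or of class and tissue together, measure the spread over paired sums within libraries. All of them also draw on the variance of all genes tested, and none measures the spread between mice.

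The share of CD8+ T cells with a *Klrc1* UMI differed in the same way. It was 87.8, 90.9, 90.3 and 89.2% in the CD8+ sort of the tumor and 5.33, 4.05, 11.1 and 9.21% in that of the spleen. After each cell was thinned to 2000 UMIs, the shares were 72.8, 78.5, 76.4 and 74% in the tumor and 3.17, 2.56, 7.65 and 7.09% in the spleen. Thinning left out no tumor cell of this class and kept 2779, 2808, 2262 and 2510 of the spleen cells. RNA from outside the cell was gauged in the libraries of the CD45+ sort only. There the unthinned share was 0.219, 0.0706, 0 and 0.178% in B cells of the spleen, at median depths of 4224, 4163, 4464.5 and 4284 UMIs, against 8.51, 9.03, 10.1 and 8.42% in CD8+ T cells, at 6345, 6053, 6679 and 6021 UMIs. In the tumor it was 0.704, 0.486, 1.12 and 1.24% in myeloid cells, at 12944.5, 13636, 13171 and 11371 UMIs, against 84, 82, 89 and 86.9% in CD8+ T cells, at 10141, 8676.5, 10401 and 8919.5 UMIs. The T cell shares in both tissues of this sort thus lay above those of cells that should lack the gene.

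*Klrd1*, which encodes the partner chain CD94, was already present in the spleen. Its level was 911, 1024, 1105 and 1159 CPM in the CD8+ T cells of the tumor and 268, 235, 257 and 293 CPM in those of the spleen, a 3.75-fold rise (log2 difference 1.91 ± 0.07 SE, adjusted p = 3.51e-07 by edgeR's quasi-likelihood test with Benjamini-Hochberg adjustment, 4 of 4 conditions). A *Klrd1* UMI was found in 71.9, 65.9, 68.2 and 68.3% of splenic CD8+ T cells, and in 37.6, 33.8, 36.5 and 38.4% after thinning. In the tumor these shares were 93.3, 94.4, 94.1 and 93.5% before thinning and 71.4, 76.6, 76.5 and 78.3% after it. Before thinning, most splenic CD8+ T cells therefore held a *Klrd1* UMI without one of *Klrc1*. In the CD45+ sort a *Klrd1* UMI was found in 0.802, 0.353, 0.303 and 0.475% of splenic B cells and 70.2, 68.4, 65.8 and 68.4% of splenic CD8+ T cells. Within thinned CD8+ T cells of the tumor, *Klrd1* was found in 78.5, 81.8, 83.1 and 82.5% of the cells with *Klrc1* and in 52.4, 57.6, 55.5 and 66.3% of those without it.

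The activating receptor gene *Klrk1* followed *Klrc1*. It was at 492, 602, 545 and 584 CPM in the tumor and 26.4, 19.7, 67.9 and 60.8 CPM in the spleen, and it rose 13.3-fold (log2 difference 3.73 ± 0.30 SE, adjusted p = 1.29e-05 by edgeR's quasi-likelihood test with Benjamini-Hochberg adjustment, 4 of 4 conditions). The share of cells with a UMI went from 5.25, 3.52, 11 and 8.94% in the spleen to 86.9, 91.1, 88.8 and 87.5% in the tumor, and after thinning from 3.6, 2.35, 8.05 and 6.37% to 57.9, 65.4, 61.7 and 63.9%. In the CD45+ sort, 1372, 1417, 1318 and 1685 splenic B cells held 3, 2, 3 and 21 *Klrk1* UMIs. Myeloid cells of the tumor held *Klrk1* too, as given below, so they gave no background share for it. In the spleen the few cells with one transcript tended to hold the other. *Klrk1* was found in 52.3, 68.2 and 65.7% of the thinned splenic CD8+ T cells with *Klrc1* in the libraries other than *Aire*+/+ anti-PD1 and in 36 of 72 such cells there, against 2.01, 1.1, 3.06 and 1.84% of those without *Klrc1*.

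*Klre1* was at 107, 137, 124 and 104 CPM in the tumor and 9.63, 10.2, 21.3 and 22.8 CPM in the spleen, and rose 7.28-fold (log2 difference 2.86 ± 0.23 SE, adjusted p = 1.46e-05 by edgeR's quasi-likelihood test with Benjamini-Hochberg adjustment, 4 of 4 conditions). The other 3 members stayed low in CD8+ T cells. *Klrc2* was at 4.29 to 5.25 CPM in the tumor and 2.14 to 3.25 CPM in the spleen (log2 difference 0.77 ± 0.17 SE), and *Klrb1c* at 4.33 to 7.88 and 2.13 to 4.51 CPM (log2 difference 0.71 ± 0.15 SE). *Ncr1* gave 1, 1, 1 and 6 UMIs in the CD8+ T cells of the tumor and 0, 0, 0 and 1 in the spleen and was not tested. In all, 6 of the 7 members rose in this comparison, against 77.6% of all 11331 genes tested that moved in either direction. A call by itself thus sets no member apart here, and the size of the change in *Klrc1*, *Klrk1* and *Klre1* stands beside a median of −0.03 over all genes on the log2 scale. In the CD45+ sort 4 members rose (*Klrc1*, *Klrd1*, *Klrk1* and *Klre1*), against 55.8% of all genes that moved, and *Klrb1c* did not pass the threshold (log2 difference −0.59 ± 0.31 SE). Without the *Aire*-/- anti-PD1 libraries the difference of *Klrb1c* was −0.96 and passed it. *Klrc2* and *Ncr1* were too low there to test. Myeloid genes were also higher in the tumor in these sums. *Lyz2* was at 159, 10.4, 75.9 and 74.4 CPM there and at 2.14, 3.11, 0 and 4.16 CPM in the spleen. *C1qb* was at 59.8, 37.7, 51.9 and 13.5 CPM against 2.14, 0, 0.992 and 0.832 CPM. The part of this RNA in the results for this sort was not tested.

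NK-gated cells differed between tumor and spleen in the opposite direction for most members. The activating chain *Klrc2* was at 42.3, 61.8, 46.2 and 53.1 CPM in the tumor and 472, 539, 368 and 587 CPM in the spleen. It fell by 2.91 on the log2 scale (± 0.13 SE, adjusted p = 3.4e-14 by edgeR's quasi-likelihood test with Benjamini-Hochberg adjustment, lower in 4 of 4 conditions). Its share of cells was 28.8, 38.4, 33.6 and 41% in the tumor and 65, 73.9, 75.9 and 76.5% in the spleen, and 5.77, 14.4, 10.5 and 15.1% against 54.7, 60.9, 63 and 62.7% after thinning, which left out 5 splenic cells of the *Aire*+/+ isotype library and no other cell of this class. The groups did not overlap on any of these scales.

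*Ncr1* was at 429.8, 332, 387 and 379.8 CPM in the NK-gated cells of the tumor and at 1575, 1418, 1681 and 1849.5 CPM in those of the spleen. *Klrb1c* was at 361, 414, 379 and 352 CPM in the tumor and 1476, 1447, 1392 and 1280.1 CPM in the spleen. *Klre1* was at 225, 273, 290.3 and 299.6 CPM in the tumor and 851, 675, 792 and 962 CPM in the spleen. The ranges of tumor and spleen did not overlap for any of these 3 genes, but the share of all genes without overlap was not counted. On the log2 scale *Ncr1* fell by 1.73 (± 0.10 SE), *Klrb1c* fell by 1.53 (± 0.09 SE) and *Klre1* fell by 1.24 (± 0.11 SE) in the tumor. *Klrk1* was at 477, 540.5, 578 and 524 CPM against 1003, 1223, 1163 and 1179 CPM and fell by 0.75 (± 0.09 SE). With TMM scaling, all 7 members passed the test in these cells, against 40.1% of all genes tested.

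The CD94 and NKG2A chains moved least. *Klrc1* was at 353, 442, 402 and 327 CPM in the NK-gated cells of the tumor and 584, 568, 646 and 622 CPM in those of the spleen. Its log2 difference of −0.32 ± 0.11 SE passed the threshold (adjusted p = 0.0224 by edgeR's quasi-likelihood test with Benjamini-Hochberg adjustment, lower in 4 of 4 conditions), but not with DESeq2 (−0.26), without the filter on low counts (−0.22), without the 5% of cells with the most UMIs (−0.26) or without the *Aire*+/+ isotype (−0.28), *Aire*-/- isotype (−0.31) or *Aire*-/- anti-PD1 libraries (−0.24). *Klrd1* was at 733, 836, 895 and 888 CPM in the tumor and 814, 927, 760.1 and 1033 CPM in the spleen, so that the groups overlapped. Its log2 difference was 0.29 ± 0.10 SE (adjusted p = 0.0243 by edgeR's quasi-likelihood test with Benjamini-Hochberg adjustment) but −0.08 when only library size was used, and in plain CPM it was higher in the tumor in 1 of 4 conditions. The call was also lost without the *Aire*-/- isotype libraries (0.19). Scaling to library size moved the median of all genes from −0.02 to −0.39 in this comparison and the share of calls that were higher from 54.3 to 25.3%, with 62.9% by DESeq2.

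The tissue difference of CD8+ T cells was set against that of NK-gated cells within the CD45+ sort, with a test chosen after the levels had been seen. It passed the threshold for 4 of the 5 members with enough UMIs to be tested in the CD8+ T cells of this sort, against 23.9% of the 6901 genes tested in each class by itself. *Klrc2* and *Ncr1* were too low in the T cells and are left out. The difference between the tissue effects was 3.96 ± 0.16 SE on the log2 scale for *Klrc1* (adjusted p = 4.86e-12 by edgeR's quasi-likelihood test with Benjamini-Hochberg adjustment) and 4.16 ± 0.12 SE for *Klrk1* (adjusted p = 1.04e-13 by the same edgeR test and adjustment). It was 2.91 ± 0.21 SE for *Klre1* and 1.38 ± 0.12 SE for *Klrd1*. For *Klrb1c* it did not pass (0.91 ± 0.37 SE).

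**Figure D1:**
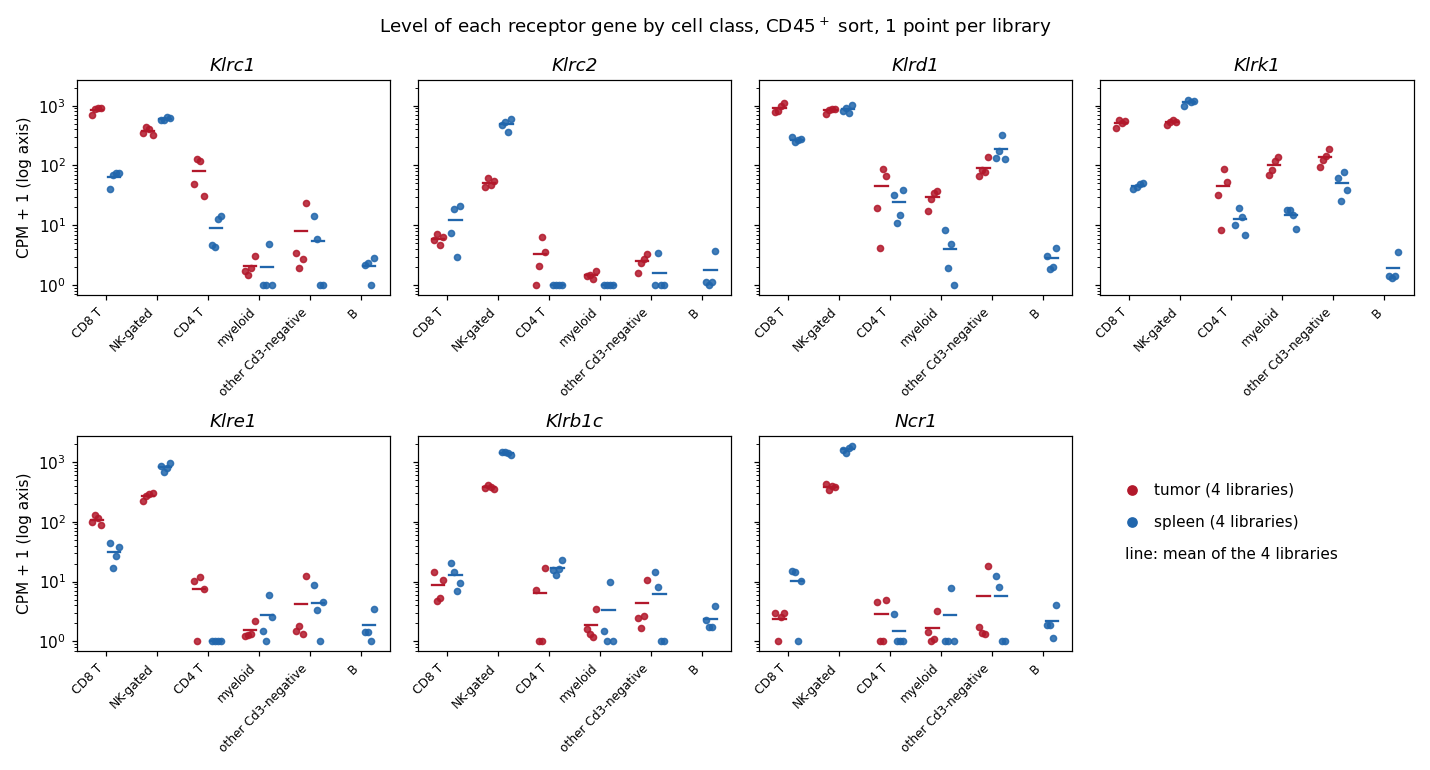
Levels of the 7 receptor genes in 6 classes of cells from the CD45+ sort, in CPM + 1 on a log axis, with 1 point per library and a line at the mean of 4 libraries for each class and tissue, and classes with fewer than 20 cells left out. *Klrc1* is highest in CD8+ T cells in the tumor (mean 851 CPM) and in NK-gated cells in the spleen (mean 605 CPM), and *Ncr1* is highest in NK-gated cells in both tissues.

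Across the classes of the CD45+ sort the order of levels changed between tissues for *Klrc1*. In the tumor it ran from CD8+ T cells (mean 851 CPM, SD 106, n = 4 libraries) to NK-gated cells (381, SD 50.9), other T cells (268, SD 84.9) and CD4+ T cells (81, SD 49.1), and NK-gated and other T cells overlapped. In the spleen NK-gated cells came first (605, SD 35.5), followed by other T cells (159) and CD8+ T cells (64.3). *Klrd1* was at a mean of 914 CPM in CD8+ T cells and 838 CPM in NK-gated cells of the tumor, which overlapped, and in the spleen at 884 CPM in NK-gated cells above 268 CPM in CD8+ T cells. *Klrk1* overlapped likewise in the tumor, with 530.0 CPM in NK-gated cells and 516 CPM in CD8+ T cells, and was at 1142 and 45.2 CPM in the spleen.

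The remaining members were led by the NK-gated cells in both tissues. *Klrb1c* stood at a mean of 377 CPM there in the tumor, then 113 CPM in other T cells and 7.75 CPM in CD8+ T cells, and at 1399, 186 and 11.8 CPM in the spleen. *Ncr1* stood at 382 CPM in NK-gated cells and 135 CPM in other T cells of the tumor, and at 1631 and 98.2 CPM in the spleen. *Klrc2* was at 50.9, 24.5 and 4.91 CPM in NK-gated, other T and CD8+ T cells of the tumor. For *Klre1*, NK-gated cells of the tumor (272 CPM) lay above other T cells (113 CPM) and CD8+ T cells (106 CPM), which overlapped. Other T cells held a *Cd3* UMI without a clear *Cd4* or *Cd8* class, so their name rests on the gate alone. CD8+ T cells held *Ncr1* at a mean of only 1.4 CPM in the tumor and 9.14 CPM in the spleen. The part of NK cells with a *Cd3* UMI in the other T cells was not tested.

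Against all *Cd3*-negative cells of the tumor, among which myeloid cells were the most numerous class, CD8+ T cells had more *Klrc1*, *Klrd1*, *Klrk1* and *Klre1* and less *Klrb1c* and *Ncr1*. *Klrc1* was at 16.9, 30.1, 39.6 and 91.1 CPM in the *Cd3*-negative cells, and its log2 difference was 4.33 ± 0.33 SE (adjusted p = 2.68e-05 by edgeR's quasi-likelihood test with Benjamini-Hochberg adjustment, 4 of 4 libraries). Those levels were lowest in the *Aire*+/+ isotype library and highest in the *Aire*-/- anti-PD1 library, in the same order as the share of NK-gated cells in the library, at 3.55, 5.66, 8.19 and 11.5%. The part of that share in the result was not tested. *Klrc1*, *Klrd1*, *Klrk1*, *Klre1* and *Klrb1c* moved, against 60.8% of all genes. *Ncr1* also passed, but was too low in the T cells to be tested between tissues and is not counted. *Klrd1* differed by 2.67 ± 0.25 SE, *Klrk1* by 1.57 ± 0.18 SE, and *Klrb1c* by −2.83 ± 0.44 SE on the log2 scale, while *Klrc2* did not pass (−0.70 ± 0.40 SE). *Ncr1* gave 3, 0, 4 and 15 UMIs in the CD8+ T cells against 658, 540, 733 and 1281 in the *Cd3*-negative cells. *Klre1* differed by 1.79 ± 0.48 SE, a call lost without the *Aire*+/+ anti-PD1 (1.52) or the *Aire*-/- isotype library (1.82). Higher calls were 47.4% of all calls here, and 59.6% with library size only, which moved the median of all genes to 0.20.

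In the spleen, where *Cd3*-negative cells were mostly B cells, *Klrc1*, *Klrd1*, *Klrk1*, *Klre1* and *Klrb1c* moved, against 45.5% of all genes. Again *Ncr1* passed but is not counted, for the same reason. *Klrc1* was at 20.6, 15.1, 22.2 and 16.4 CPM in the *Cd3*-negative cells, below each CD8+ T cell value, with a log2 difference of 1.97 ± 0.16 SE. *Klrd1* differed by 3.12 ± 0.08 SE and *Klrb1c* by −1.68 ± 0.20 SE. *Ncr1* gave 13, 13, 0 and 11 UMIs in the CD8+ T cells, against 507, 292, 471 and 419 in the NK-gated part of the *Cd3*-negative cells. The differences of *Klrk1* (0.47 ± 0.13 SE) and *Klre1* (0.48 ± 0.16 SE) were lost with library size only (0.29 and 0.31), with DESeq2 (0.44 and 0.43), with stricter gates (0.23 and 0.34) and without the *Aire*-/- anti-PD1 library (0.33 and 0.39), and that of *Klre1* also with no library block (0.49), without the 5% of cells with the most UMIs (0.34) and without the *Aire*+/+ isotype library (0.35). *Klrc2* did not pass (−0.14 ± 0.29 SE), but did so at −0.97 with stricter gates. Here 45.7% of calls were higher, and 30.4% with library size only, which moved the median of all genes to −0.21.

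Against NK-gated cells alone, CD8+ T cells of the tumor had more *Klrc1* and less *Klrc2*, *Klre1*, *Klrb1c* and *Ncr1*. *Klrc1* was 2.2-fold higher in the T cells (log2 difference 1.14 ± 0.08 SE, adjusted p = 7.08e-07 by edgeR's quasi-likelihood test with Benjamini-Hochberg adjustment, 4 of 4 libraries). *Klre1* differed by −1.42 ± 0.11 SE and *Klrb1c* by −5.60 ± 0.20 SE on the log2 scale. *Klrc2*, with 7, 13, 9 and 39 UMIs in the T cells, and *Ncr1*, with 3, 0, 4 and 15 UMIs there, were also lower. *Klrd1* (0.09 ± 0.06 SE) and *Klrk1* (−0.07 ± 0.07 SE) did not pass the threshold, although *Klrk1* did so at −0.22 when the 5% of cells with the most UMIs were left out. The calls of *Klrc1*, *Klre1* and *Klrb1c* stand against 27.7% of all genes. *Klrc2* and *Ncr1*, too low in the T cells to be tested between tissues, are not set against this share.

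The same comparison was made in the spleen. There *Klrc1*, *Klrd1*, *Klrk1*, *Klre1* and *Klrb1c* were lower in CD8+ T cells, against 34.8% of all genes called in either direction. *Klrc2* and *Ncr1* were lower as well, but were too low in the T cells to be tested between tissues and are not counted. *Klrc1* differed by −2.80 ± 0.12 SE and *Klrk1* by −4.21 ± 0.10 SE on the log2 scale, with *Klrd1* the least apart (−1.27 ± 0.09 SE). The directions of the 7 genes held with library size only, which moved the median of all genes to −0.45 and the share of higher calls from 51.1 to 17%.

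The source of the RNA in whole CD45+ libraries followed both these levels and the number of UMIs in each class. CD8+ T cells supplied 53.3, 63, 64.9 and 77.2% of all *Klrc1* UMIs in the tumor and 10.5, 22.7, 22.4 and 21.8% in the spleen. NK-gated cells supplied 26.7, 24.4, 21.4 and 11.7% of them in the tumor and 53.4, 39.7, 54.8 and 34.1% in the spleen. Other T cells, a class named by its gate alone, supplied 31.2, 33.2, 18.2 and 37.5% in the spleen. This class was the largest source in the *Aire*-/- anti-PD1 library, and the part of NK cells in it was not tested. For *Ncr1* the NK-gated cells supplied 76.9, 79.7, 84.7 and 71.3% in the tumor and 86.4, 77.7, 90.4 and 74.4% in the spleen. The *Ncr1* UMIs thus came mainly from 1 class in both tissues, whereas CD8+ T cells were the largest source of *Klrc1* in 4 of 4 tumor libraries and 0 of 4 spleen libraries.

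Myeloid and other *Cd3*-negative cells of the tumor also held *Klrk1*. Its level in myeloid cells was 67.9, 84.7, 118 and 138 CPM, and a UMI was found in 35.6, 41.5, 51.7 and 52.3% of the cells, or 11.3, 12.8, 16.8 and 16.2% after thinning. The myeloid cells held 14, 7, 11 and 12 *Klrc1* UMIs. For each of these they held 98.1, 179.7, 124 and 65.6 *Klrk1* UMIs, against 0.615, 0.654, 0.558 and 0.6 in CD8+ T cells and 1.35, 1.22, 1.44 and 1.6 in NK-gated cells of the same libraries. Myeloid cells supplied 32, 26.7, 26.2 and 9.55% of the *Klrk1* UMIs in the tumor libraries. In other *Cd3*-negative cells its level was 94.6, 124, 141 and 188 CPM, and they supplied 26.5, 20.1, 16.8 and 7.96% of the UMIs. *Klrd1* was found in the same classes. Myeloid cells held 328, 389, 396 and 208 of its UMIs, and other *Cd3*-negative cells held 793, 625, 484 and 480. For each *Klrd1* UMI, myeloid cells held 4.19, 3.23, 3.44 and 3.78 *Klrk1* UMIs. Other *Cd3*-negative cells held 1.43, 1.52, 1.81 and 1.37. This ratio was 0.553, 0.697, 0.526 and 0.506 in CD8+ T cells and 0.651, 0.646, 0.646 and 0.591 in NK-gated cells. The origin of the RNA of either gene was not tested.

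CD8+ T cells of the tumor were then split by *Havcr2*, which encodes the exhaustion marker TIM-3, and *Tcf7*, which encodes the factor TCF-1 of stem-like T cells. *Klrc1* was at 1088, 1165, 1236 and 1069 CPM in *Havcr2*-positive *Tcf7*-negative cells and at 398, 459, 402 and 389 CPM in *Tcf7*-positive *Havcr2*-negative cells. *Klrk1* was at 503, 587, 561 and 575 CPM in the first and 292, 379, 334 and 316 CPM in the second. *Klre1* was at 126, 151, 146 and 120.1 CPM against 45.1, 63.2, 58.9 and 42.3 CPM. The groups did not overlap for any of these 3 genes, but the share of all genes without overlap was not counted here either. The *Tcf7*-positive *Havcr2*-negative cells still held each of the 3 genes above the level of whole splenic CD8+ T cells of the same sort. Of those splenic cells, 78.2, 80.1, 72.8 and 74% lacked a UMI of *Ccl5*, and such cells held little of these genes, as given below. The comparison is thus not one with the *Ccl5*-positive cells of the spleen.

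In this comparison *Klrc1* rose by 1.41 ± 0.06 SE on the log2 scale (adjusted p = 1.85e-10 by edgeR's quasi-likelihood test with Benjamini-Hochberg adjustment, 4 of 4 libraries), *Klrd1* by 1.20 ± 0.05 SE, *Klre1* by 1.33 ± 0.07 SE and *Klrk1* by 0.70 ± 0.06 SE. *Klrc2* went the other way, from 12.2, 14.1, 10.1 and 6.63 CPM in *Tcf7*-positive cells to 3.49, 4.07, 3.47 and 3.28 CPM (log2 difference −1.65 ± 0.20 SE). *Klrb1c* also passed at −0.89 ± 0.28 SE, but not with DESeq2 (−0.76) or without the *Aire*+/+ isotype (−0.71) or *Aire*+/+ anti-PD1 library (−0.58). The 6 calls stand against 43.4% of all genes.

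By *Itgae*, which encodes the integrin CD103 of tissue-resident T cells, *Klrk1* and *Klre1* moved in opposite directions. *Klrk1* was at 645, 853, 696 and 793 CPM in *Itgae*-positive and 481, 578, 522 and 531 CPM in *Itgae*-negative CD8+ T cells of the tumor, and rose by 0.51 ± 0.04 SE on the log2 scale (adjusted p = 4.6e-06 by edgeR's quasi-likelihood test with Benjamini-Hochberg adjustment, 4 of 4 libraries). *Klre1* was at 55.8, 106, 95.3 and 65.5 CPM against 110.2, 140.1, 128 and 114 CPM and fell by 0.62 (± 0.09 SE), and *Klrd1* fell by 0.24 (± 0.05 SE), a call lost with no library block (−0.23). *Klrc1* did not pass the threshold (0.10 ± 0.04 SE), and neither did *Klrc2* (0.44 ± 0.21 SE) or *Klrb1c* (0.03 ± 0.31 SE). These 3 calls of 6 members tested stand against 25.7% of all genes. The *Itgae*-positive share was 8.89, 11.7, 16.4 and 27.6% of these cells.

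In the spleen nearly all *Klrc1*, *Klrk1* and *Klre1* RNA of CD8+ T cells lay in cells with *Ccl5*, a chemokine gene of antigen-experienced cells. *Klrc1* was at 116, 84.7, 247 and 255 CPM in *Ccl5*-positive and 1.08, 1.51, 3.18 and 1.01 CPM in *Ccl5*-negative cells (log2 difference 6.60 ± 0.14 SE, adjusted p = 3.76e-13 by edgeR's quasi-likelihood test with Benjamini-Hochberg adjustment, 4 of 4 libraries). *Klrk1* was at 94.1, 78, 209 and 203 CPM against 2.66, 1.79, 4.33 and 1.55 CPM (log2 difference 5.70 ± 0.15 SE). In the *Ccl5*-negative cells *Klre1* gave 2, 0, 4 and 0 UMIs, *Klrc2* 1, 0, 1 and 0 UMIs and *Klrb1c* 3 UMIs in each library, too few for a fold to be given. *Klrd1* was spread over both, at 333, 294, 375 and 436 CPM against 246, 216, 204 and 233 CPM (log2 difference 0.62 ± 0.07 SE). *Klrc1*, *Klrk1* and *Klrd1* rose, against 28.5% of all genes that moved. *Klre1*, *Klrc2* and *Klrb1c* were also higher, but with so few UMIs in *Ccl5*-negative cells they are not set against this share. Higher calls were 54.9% of all calls, 66.6% with library size only and 66.2% with DESeq2.

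With 1 library per condition, tissue and sort, conditions were compared without a test. The ratios below carry 95% intervals for counting error only and have no replicate check. A gene was counted as different past 1.5-fold if the pair of libraries held at least 100 of its UMIs.

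*Aire*-/- libraries held more *Klrc1*, *Klrk1* and *Klre1* in splenic CD8+ T cells of the CD8+ sort. Under isotype the ratio of *Aire*-/- over *Aire*+/+ was 2.56 (2.32 to 2.83) for *Klrc1*, 2.57 (2.31 to 2.87) for *Klrk1* and 2.21 (1.84 to 2.67) for *Klre1*. Under anti-PD1 it was 3.61 (3.21 to 4.06), 3.09 (2.74 to 3.5) and 2.23 (1.86 to 2.68) for the same genes. Both *Aire*-/- libraries thus lay above both *Aire*+/+ libraries for these 3 genes. *Klrd1* differed little, with ratios of 0.958 (0.918 to 0.999) for isotype and 1.25 (1.2 to 1.3) for anti-PD1. Of the members with enough UMIs, 3 of 5 were past 1.5-fold under isotype, against 3.85% of all genes, and 4 of 5 under anti-PD1, against 5.18%, where *Klrb1c* was lower at 0.472 (0.305 to 0.715).

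Treatment moved few members in the same cells. Anti-PD1 over isotype put 1 of 6 members past 1.5-fold in *Aire*+/+ mice, against 1.32% of all genes, namely *Klrc2* at 0.66 (0.43 to 1), an interval that reaches no difference. In *Aire*-/- mice 0 of 4 were past it, against 1.77%.

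**Figure D2:**
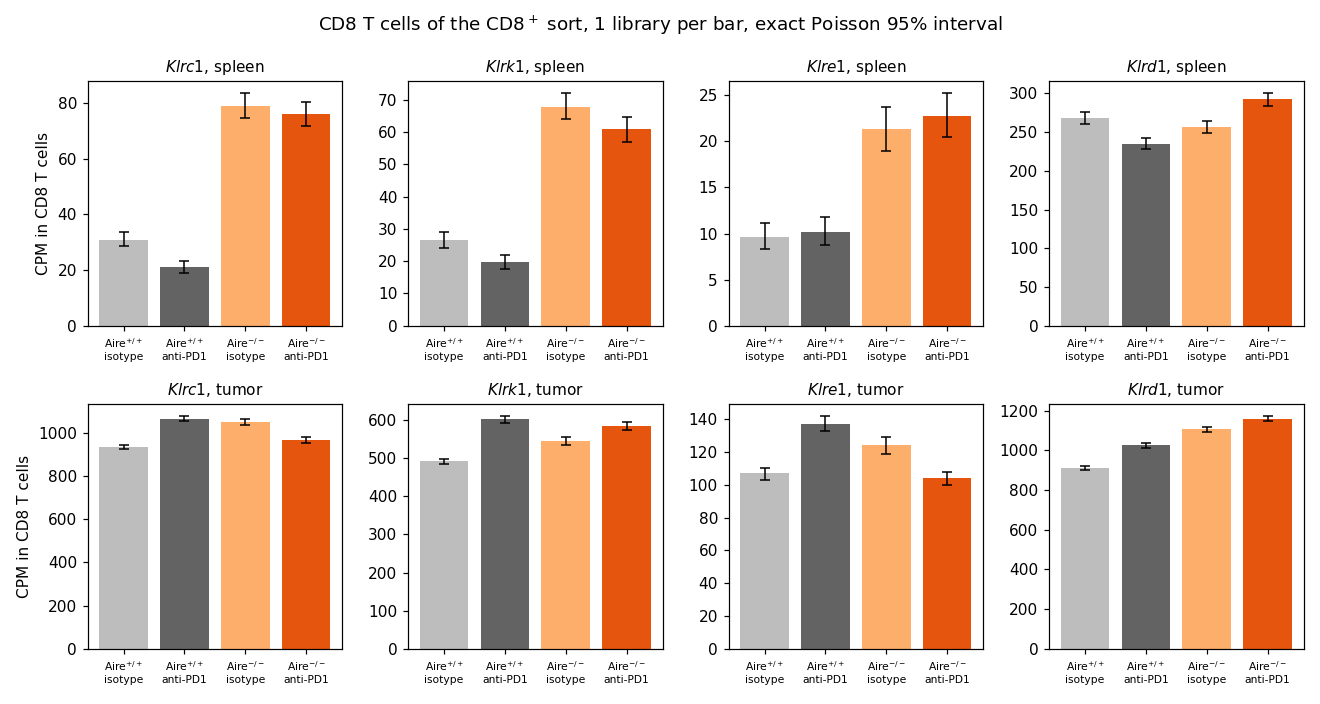
Levels of *Klrc1*, *Klrk1*, *Klre1* and *Klrd1* in CD8+ T cells of the CD8+ sort, in CPM, for the 4 conditions in the spleen (top) and the tumor (bottom), with each bar 1 library and its error bar the exact Poisson 95% interval, which covers counting error only. In the spleen *Klrc1* is at 79.1 and 76 CPM in the *Aire*-/- libraries and 30.9 and 21 CPM in the *Aire*+/+ libraries, while in the tumor all 4 libraries lie between 934 and 1065 CPM.

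In the CD8+ sort both the share of *Ccl5*-positive cells and the levels within them differed between the genotypes. Such cells made up 21.8, 19.9, 27.2 and 26% of the splenic CD8+ T cells. In the CD45+ sort they made up 22.7, 23.9, 28.9 and 22.1%, so that the share was not higher in *Aire*-/- under anti-PD1. Within *Ccl5*-positive cells alone, an alternative chosen after seeing the data, the ratio for *Klrc1* was 2.14 (1.93 to 2.37) with isotype and 3.01 (2.67 to 3.4) with anti-PD1. For *Klrk1* it was 2.22 and 2.6, and for *Klre1* 1.84 and 1.78.

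Markers of NK cells were examined in the same sums. The summed level of the 10 NK markers in these splenic CD8+ T cells was 375, 349, 853 and 789.8 CPM, with 5 of 10 at 10 CPM or more in each library. *Gzma*, which encodes a granule protease shared by NK cells and cytotoxic T cells, was at 85, 83.1, 569.9 and 453 CPM and was the most abundant in the *Aire*-/- libraries, while *Txk* was so in the *Aire*+/+ libraries at 152 and 150.5 CPM. *Ncr1* was at 0, 0, 0 and 1 UMI, the NKT marker *Zbtb16* was at 0, 0, 0.331 and 0.0644 CPM, and *Klra8* was at 0.0532, 0.275, 0.331 and 1.74 CPM. *Eomes* was at 42.1, 38.8, 55.4 and 67 CPM and *Prf1* at 38.6, 35.8, 48.2 and 50.7 CPM, while *Xcl1*, at 53.5, 34.4, 26.5 and 60.8 CPM, was lower in *Aire*-/- under isotype and higher under anti-PD1. *Ncam1* was at 0 in the *Aire*-/- isotype library, as in the NK-gated cells. The part of *Gzma*-expressing cells in the result was not tested.

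The smaller CD45+ sort gave less of this difference. In its splenic CD8+ T cells *Klrc1* was 1.85-fold (1.23 to 2.83) higher in *Aire*-/- under isotype and 1.08-fold (0.777 to 1.5) under anti-PD1. *Klrk1* was at 39.6, 42.5, 48.6 and 49.9 CPM, with ratios of 1.23 (0.784 to 1.93) and 1.17 (0.776 to 1.79). *Klre1* was at 43.9, 15.5, 25.8 and 36.6 CPM, so that its direction differed between the treatments. Members past 1.5-fold were 1 of 2 under isotype, against 3.59% of all genes, and 0 of 3 under anti-PD1, against 5.11%. For anti-PD1 over isotype they were 1 of 2 in *Aire*+/+ mice (*Klrc1*, 1.75, 1.16 to 2.69), against 2.33%, and 0 of 3 in *Aire*-/- mice, against 2.46%. The calls for *Klrc1* rest on its *Aire*+/+ isotype library.

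In the tumor the genotypes differed less. In CD8+ T cells of the CD8+ sort *Klrc1* had *Aire*-/- over *Aire*+/+ ratios of 1.12 (1.1 to 1.14) with isotype but 0.907 (0.891 to 0.924) with anti-PD1, so its direction changed with treatment. *Klrd1* was higher in *Aire*-/- under both, at 1.21 (1.19 to 1.23) and 1.13 (1.11 to 1.15). *Klre1* had ratios of 1.16 (1.1 to 1.22) with isotype and 0.758 (0.719 to 0.799) with anti-PD1. None of 6 members was past 1.5-fold in any of the 4 comparisons, against 3.82 and 3.52% of all genes for genotype under isotype and anti-PD1, and 2.56 and 2.03% for treatment in *Aire*+/+ and *Aire*-/- mice. Of these 24 member ratios, 2 were past it without the top 5% of cells by UMIs, and 2 after thinning.

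CD8+ T cells of the CD45+ sort gave 0 of 4 members past 1.5-fold in each comparison, against 4.98 and 5.64% of all genes for genotype and 6.62 and 5.38% for treatment. After thinning, 2 of these 16 member ratios were past it. *Klrd1* was again higher in *Aire*-/- mice, by 1.26-fold (1.18 to 1.36) with isotype and by 1.34-fold (1.27 to 1.41) with anti-PD1. The number of these cells in the library, 712 in *Aire*-/- anti-PD1 against 131 to 209 in the others, thus differed far more than the level per cell of any of the 4 genes.

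NK-gated cells showed no member past 1.5-fold in the tumor, with 0 of 7 in each comparison against 9.87 and 5.23% of all genes for genotype and 6.28 and 4.41% for treatment. After thinning, 3 of these 28 member ratios were past it. In the spleen there were 0 of 7 for genotype under isotype and anti-PD1, against 6.56 and 5.44%. For treatment there were 0 of 7 in *Aire*+/+ mice, against 2.53%, and 1 of 7 in *Aire*-/- mice, against 6.24%, namely *Klrc2* at 1.6 (1.23 to 2.09). It was no longer past 1.5-fold without the top 5% of cells by UMIs.

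The genes with the pattern most like each member were sought over 60 class sums of the CD45+ sort and 7887 genes, as a description, since sums share libraries and depth. *Klrc1* was most like *Fasl* (Pearson r = 0.946), *Nkg7* (r = 0.920, a gene of the NK gate) and *Ctla2a* (r = 0.919). *Klrb1c* was most like *Ncr1* (r = 0.977), *Klrb1a* (r = 0.963) and *Klra8* (r = 0.948), and *Ncr1* was most like *Klrb1a* (r = 0.982). *Klrc2* was most like *Klra8* (r = 0.960), *Klre1* like *Gzma* (r = 0.956, also of the gate), *Klrd1* like *Klrk1* (r = 0.862) and *Klrk1* like *Ctla2b* (r = 0.863). Over the 16 sums of CD8+ T cells and 7113 genes, *Klrc1* and *Klrk1* were the most alike of all genes to each other (r = 0.997). *Klrd1* was there most like *Clic1* (r = 0.996) and *Klre1* most like *Lrrk1* (r = 0.980), and these sums differ mainly by tissue.

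Genes that work with the receptors were taken as 4 lists. In CD8+ T cells of the CD8+ sort, tumor against spleen, 6 of 10 adaptor and signalling genes tested rose and 3 fell (median log2 difference 0.42, against −0.03 over all genes), where 77.6% of all genes were called. *Hcst*, the adaptor of NKG2D, did not pass (0.10 ± 0.07 SE), *Tyrobp* rose by 1.64 ± 0.21 SE and *Fcer1g* by 3.62 ± 0.14 SE. *Tyrobp* was at 8.54, 10.6, 18.1 and 13.2 CPM in the tumor and 2.5, 5.06, 3.31 and 4.06 CPM in the spleen. The macrophage gene *C1qb* was also higher in these sums, at 3.35, 7.41, 10.2 and 15.6 CPM in the tumor and 0.319, 0.165, 0.0663 and 0.644 CPM in the spleen, and the part of RNA from myeloid cells in the rise of either adaptor was not tested. Of the ligand genes, 4 of 12 were tested, with 2 higher and 2 lower (median −0.25). *H2-T23*, which encodes Qa-1, rose by 0.66 ± 0.07 SE and *Ulbp1*, which encodes an NKG2D ligand, by 1.07 ± 0.20 SE. Other lectin-like receptors gave 4 higher and 1 lower of 8 tested (median 1.72), with *Klri2*, the partner of *Klre1*, up by 5.38 ± 0.22 SE and *Cd69* by 2.28 ± 0.06 SE. NK transcription factors and receptors gave 8 higher and 1 lower of 10 (median 1.44), with *Tigit* up by 4.94 ± 0.19 SE and *Eomes* the one that fell, by 1.51 (± 0.15 SE).

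In NK-gated cells 40.1% of all genes were called between tumor and spleen. Of 12 adaptors 1 rose and 5 fell (median −0.04, against −0.02 over all genes), and *Hcst* fell by 0.85 (± 0.11 SE). Of 3 ligand genes tested 0 rose and 1 fell (median 0.12). Among 9 other lectin-like receptors 2 rose and 7 fell (median −1.20), and *Klri2* fell by 1.35 (± 0.12 SE) with its partner *Klre1* while *Cd69* rose by 3.08 ± 0.17 SE. Of 9 NK transcription factors and receptors 3 rose and 4 fell (median −0.39), with *Tbx21* down (−1.16 ± 0.15 SE) and *Tigit* up by 1.96 ± 0.20 SE.

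Promoters of RefSeq GRCm38.p6, 250 bases before to 50 after the start, were listed for 6 members and searched for the letters of a RUNX motif, TGTGGT or ACCACA on the other strand. All 6 held it, against 16.8% of 32851 promoters. The T-box half-site TCACAC, or GTGTGA on the other strand, was in 2 of 6, *Ncr1* and *Klre1*, against 14.5%. A match is a description of the letters and not of a bound site. *Klrd1* has no entry. Shown are the 3 members that rose most in tumor CD8+ T cells and *Ncr1*, which stayed near 0 there, each 5′ to 3′ on the strand of its gene with the RUNX letters in capitals. They lie at chr6:129678924-129679223 (*Klrc1*, minus strand), chr6:129623815-129624114 (*Klrk1*, minus strand), chr6:129577963-129578262 (*Klre1*, plus strand) and chr7:4337465-4337764 (*Ncr1*, plus strand). *Klrc1* and *Klrk1* had 1 start listed, and *Klre1* and *Ncr1* had 2, of which 1 is shown. The promoters of *Klrc1* and *Klre1* lie inside the gene bounds given above, so that the start shown is not the outermost one.
Klrc1: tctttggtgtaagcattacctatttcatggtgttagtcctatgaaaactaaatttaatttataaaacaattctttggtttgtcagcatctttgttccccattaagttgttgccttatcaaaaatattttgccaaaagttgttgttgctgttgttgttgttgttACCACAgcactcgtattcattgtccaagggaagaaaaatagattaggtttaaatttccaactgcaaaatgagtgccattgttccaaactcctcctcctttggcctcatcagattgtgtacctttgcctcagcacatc
Klrk1: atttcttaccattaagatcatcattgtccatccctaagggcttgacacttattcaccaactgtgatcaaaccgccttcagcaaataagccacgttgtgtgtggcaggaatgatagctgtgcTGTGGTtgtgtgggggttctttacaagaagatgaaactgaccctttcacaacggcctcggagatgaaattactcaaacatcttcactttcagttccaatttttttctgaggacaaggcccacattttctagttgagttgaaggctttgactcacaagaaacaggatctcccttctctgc
Klre1: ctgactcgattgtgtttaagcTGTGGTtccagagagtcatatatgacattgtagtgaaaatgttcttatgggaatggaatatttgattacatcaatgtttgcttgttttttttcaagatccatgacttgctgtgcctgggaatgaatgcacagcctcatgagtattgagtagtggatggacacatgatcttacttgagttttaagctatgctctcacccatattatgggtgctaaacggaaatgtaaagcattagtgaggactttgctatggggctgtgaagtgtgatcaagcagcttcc
Ncr1: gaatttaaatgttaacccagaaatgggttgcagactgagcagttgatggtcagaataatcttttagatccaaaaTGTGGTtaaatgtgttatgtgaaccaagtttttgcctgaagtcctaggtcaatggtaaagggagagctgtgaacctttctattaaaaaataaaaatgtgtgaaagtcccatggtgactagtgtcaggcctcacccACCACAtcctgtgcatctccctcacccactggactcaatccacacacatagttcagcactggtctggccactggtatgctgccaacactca

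*Klrc1* and *Klrc2* are near copies, and their counts are uncertain to that extent. Of the 50-base windows in the last 500 bases of the *Klrc1* transcript, 254 of 451 (56.3%) also occur in the *Klrc2* transcript, and none of those at the end of *Klrc2* occurs in *Klrc1*. Over the whole transcripts, 38.1% of the windows of *Klrc1* occur in *Klrc2* and 22.8% of those of *Klrc2* in *Klrc1*. The values for the end apply only if 3′ ends were counted, which the sources leave unclear. How the counting shared out such reads is not given in the sources used here.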

How the data were processed

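The 16 tables hold UMI counts per gene and cell that the authors deposited after Cell Ranger, against mouse build GRCm38. Cells with at least 200 genes and at most 20% mitochondrial UMIs were kept, 1856 to 2944 per library. Rows were summed by symbol. The 7 genes and all gene lists were chosen with earlier results of these data known.

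Myeloid cells had at least 1% of their UMIs in 9 marker genes and B cells at least 3 UMIs in 3. Tests ran on UMIs summed per library and class in edgeR 4.0.16 (quasi-likelihood, TMM, filterByExpr, Benjamini-Hochberg over all genes tested, call at 0.05), with the condition as block between tissues and the library as block between classes, in R 4.3.3. The design was checked on simulated data. Alternatives were library size only, DESeq2 1.42.0, no filter, no block, stricter gates of 2 UMIs, leaving out the top 5% of cells by UMIs, and leaving out each condition. No doublet caller was run. Levels are CPM of the class sum with exact Poisson 95% intervals, ratios have conditional exact intervals and shares have Clopper-Pearson intervals, all for counting error only. Cells were thinned to 2000 UMIs, and shallower cells were left out. Genes named are the 7 members in every class, up to 4 genes of each of 4 lists (12 adaptors, 12 ligands of which 11 had a row, 10 other lectin-like receptors of which 9 had a row and 10 NK factors), and those with the highest Pearson r of log2(CPM + 10) among genes at 10 CPM or more, over sums of at least 20 cells. Python 3.11.15 was used with numpy 2.4.6, pandas 2.3.3, scipy 1.17.1 and matplotlib 3.10.9.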

Additional observations from a re-analysis of the deposited data

Results flagged for a closer look

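*Klrc1* in splenic CD8+ T cells of the CD45+ sort had 1 library apart from the other 3. The *Aire*+/+ isotype library was at 39.6 CPM and the others were at 69.4 to 74.8 CPM, so that the gap took up 0.847 of the range, above Dixon's critical value for 4 values. Chance alone singles out about 1 in 20 such groups, and 35 groups were compared.

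The tissue difference, tumor against spleen, was not the same in CD8+ T cells and NK-gated cells for *Klrc1*, *Klrd1*, *Klrk1* and *Klre1* by the test of class and tissue together, which was chosen after seeing the data. On the log2 scale the T cell difference exceeded that of NK-gated cells by 3.96 for *Klrc1*, 1.38 for *Klrd1*, 4.16 for *Klrk1* and 2.91 for *Klre1*.

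*Klrk1* in CD8+ T cells of the CD8+ sort was higher under anti-PD1 than under isotype in the tumor, with log2 ratios of 0.29 in *Aire*+/+ and 0.10 in *Aire*-/- mice, and lower in the spleen, with −0.43 and −0.16. With 1 library per condition this difference between tissues was not tested. In the CD45+ sort the splenic levels of *Klrk1* given above were slightly higher under anti-PD1 in both genotypes, so the lower level in the spleen was not seen there.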

How the results depend on the processing

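Of 100 counts of all genes called under the alternatives, 94 stayed within 1.5 times the reported value, as did the count of members called in all 100. For CD8+ T against NK-gated cells of the tumor, 2428 genes were called, but 1516 with DESeq2, and 1546 to 2249 with each condition left out, the lowest without *Aire*-/- anti-PD1. In the spleen the count was 2157, but 3250 with library size only and 1306 with DESeq2. DESeq2 also gave 1798 in place of 2752 for *Itgae* and 1719 in place of 2860 for *Ccl5*. The cause was not tested. A *Klrd1* log2 difference of 0.29 in NK-gated cells, tumor against spleen, became −0.08 with library size only. Of values short of the threshold, *Klrc2* in CD8+ T against all *Cd3*-negative cells of the spleen went from −0.14 to 0.08 and 0.15 without the *Aire*+/+ and the *Aire*-/- isotype library, with −0.51 to 0.15 over all 4 conditions left out, and passed at −0.97 with stricter gates, and *Klrb1c* by *Itgae* from 0.03 to −0.04 with DESeq2, −0.04 with no block, −0.06 without the top 5% of cells, and −0.48 and −0.02 without *Aire*+/+ anti-PD1 or *Aire*-/- isotype, with −0.48 to 0.31 over all 4. The differences between CD8+ T and NK-gated cells for *Klrc1*, *Klrd1*, *Klrk1* and *Klre1* kept their call without each condition.

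Thinning and a minimum of 50 UMIs change which genes have enough counts, and leaving out the gate changes which cells are summed. Genes past 1.5-fold between conditions, summed over 4 comparisons, depended on these settings. In CD8+ T cells of the CD8+ sort they were 1180 in the tumor, but 776 thinned, 1920 with a minimum of 50 UMIs and 2006 over all cells, and 1103 in the spleen, but 1908 with a minimum of 50 UMIs. In CD8+ T cells of the CD45+ sort they were 1267 in the tumor (465 thinned, 2703 with 50 UMIs) and 320 in the spleen (93 and 1354). In NK-gated cells they were 1087 in the tumor (208 and 2564) and 155 in the spleen (37 and 662). Members past 1.5-fold in tumor CD8+ T cells were 0 of 24 in the CD8+ sort, but 2 without the top 5% of cells and 2 thinned, and 0 of 16 in the CD45+ sort, but 2 thinned. In NK-gated cells they were 0 of 28 in the tumor, but 3 thinned, and 1 of 28 in the spleen, but 0 without the top 5% of cells. Tests between tissues were paired by condition and tests between classes by library, and no replicate numbers exist for another pairing. An additive fit of genotype and treatment was not run, and depth limits members with few UMIs.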
